A study of Mus musculus with 5 samples.

Results

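Skil, Tgfb1 and Ltbp1 encode a nuclear repressor, a ligand and a ligand-binding matrix protein of the transforming growth factor beta (TGF-beta) pathway. They were followed in a table of chromatin accessibility at transcription start sites. All sites that the table assigns to these gene symbols were taken, which gave 20 of 34714 sites and 3 of 8034 genes. The genes were selected on the entry values of this same table, the differences of later times from 0 h, so those values are given as a description with no test. The assay was ATAC-seq, in which a transposase inserts adapters into open chromatin. The cells were C17.2, a permanent line of murine neural stem cells labelled as CD1 x C57BL/6, which were grown with serum and then switched to KnockOut DMEM with GlutaMAX and N2. The 5 groups were cells at 0 h, which the labels call the control, and at 0.5, 1, 1.5 and 2 h after this induction of neural differentiation. Each group was 1 library of 1 cell line, so no test between times could be made, and every difference is one between single libraries that share the same 0 h library.

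TGF-beta1 is secreted in a latent complex, in which its own propeptide holds the ligand inactive and is linked to a latent TGF-beta binding protein such as LTBP1, which anchors it in the extracellular matrix. Integrins and proteases release the ligand, which binds the type II receptor and then the type I receptor. The activated receptor phosphorylates Smad2 and Smad3, which enter the nucleus with Smad4. SnoN, the product of Skil, binds these Smad complexes at target genes and recruits corepressors such as N-CoR. It is degraded when the ligand arrives, through ubiquitin ligases such as Smurf2 and Arkadia (Rnf111), and its gene is later transcribed as part of a negative feedback. In the nervous system the pathway is known for effects on progenitor proliferation, on neuronal specification and on glia.

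The promoter sequences of the ligand gene and its binding protein are shown because they differ in composition, and because a listed site of Tgfb1 lies inside its window. Both are RefSeq sequences of build GRCm38.p6 on the plus strand, 250 bases before to 50 bases after a transcript start, chr7:25686752-25687051 for Tgfb1 and chr17:75005279-75005578 for Ltbp1. Capitals mark matches on either strand to the motifs searched.
Tgfb1: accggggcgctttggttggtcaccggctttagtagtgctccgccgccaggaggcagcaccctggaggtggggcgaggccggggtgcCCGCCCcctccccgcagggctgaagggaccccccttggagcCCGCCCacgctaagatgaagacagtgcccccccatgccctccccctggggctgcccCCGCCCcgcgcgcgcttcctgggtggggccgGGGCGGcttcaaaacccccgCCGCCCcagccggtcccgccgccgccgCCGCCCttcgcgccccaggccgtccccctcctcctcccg
Ltbp1: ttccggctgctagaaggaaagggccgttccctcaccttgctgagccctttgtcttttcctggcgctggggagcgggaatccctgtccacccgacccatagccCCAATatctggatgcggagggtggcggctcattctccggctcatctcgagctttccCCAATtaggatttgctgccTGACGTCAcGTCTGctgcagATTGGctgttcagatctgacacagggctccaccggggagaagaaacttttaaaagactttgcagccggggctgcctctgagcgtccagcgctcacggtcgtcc

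The Tgfb1 window was 77.0% G and C, against a median of 52.7% over 32851 promoter windows of the same length, and it held 6 matches to the GC box GGGCGG, a motif found in 35.7% of all windows. It held none of the other motifs searched. The Ltbp1 window was 58.7% G and C. It held 3 matches to the CCAAT box (CCAAT, in 37.4% of windows), 1 match to the cyclic AMP response element TGACGTCA (in 1.79% of windows) and 1 to the short Smad element CAGAC (in 49.6%). The last of these lies on the minus strand, separated by 1 base from the cyclic AMP response element. A second Ltbp1 window, 172080 bp past the gene's listed site, held 2 matches to CAGAC. No window of either gene held the palindromic Smad element GTCTAGAC (0.213% of all windows), the AP-1 motif TGANTCA (7.81%), the E-box CACGTG (7.15%) or the TATA box TATAAA (13.6%). The ratio of observed to expected CpG was 0.69 for Tgfb1 and 0.66 for the first Ltbp1 window, above the median of 0.38, and 0.38 for the second Ltbp1 window.

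The table gives each site 1 whole number from 0 to 10 per library, taken here to be how many entries of an interval (BED) file overlap it. Such values are neither read counts nor normalised signal, and nothing gives the read depth. A value of 0 therefore does not show closed chromatin. A site with 1 or more entries is called covered, one gained went from 0 entries at 0 h to 1 or more, and one lost did the reverse. The share of all sites covered ran from 47.6% at 0 h and 51.2% at 1 h to 58.7% (0.5 h), 65.7% (2 h) and 66.9% (1.5 h). The libraries of 0 h and 1 h thus covered the fewest sites, and the part of this in the values below was not tested. In bulk cells, accessibility in fewer cells and lower accessibility in each cell cannot be told apart. Of 12 neural progenitor markers 7 were listed, with Nes at 0 entries except for 2 at 1.5 h, Pax6 and Msi1 at 0 throughout and Cdh2 at 3 to 7. No gene of the short astrocyte, fibroblast or endothelial lists was among the sites.

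Skil, the SnoN gene, was uncovered at 0 h and at 1 h and held its highest value at 1.5 h. Its 16 sites lie in a stretch of 658 bp upstream of the gene (chromosome 3, 31094282 to 31094939, GRCm38), from 776 to 119 bp before the annotated 5′ end at 31095058. No site was listed inside the 27866 bp of the gene. The sites are 1 to 12 bp wide, 11 on the plus and 5 on the minus strand. Only 3.35% of genes had 16 or more sites, the median gene having 2.

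Of the 16 Skil sites, the 0 h and 1 h libraries covered 0, the 0.5 h library 7, the 1.5 h library 16 and the 2 h library 14. Covered sites were equal within a library, with 1 entry at 0.5 h, 7 at 1.5 h and 4 at 2 h. Values thus formed blocks, with 1 height per library and different ends. The 0.5 h block took in the 7 sites from 31094645 to 31094805, at least 161 bp. At 1.5 h the block spanned all 658 bp of sites, and at 2 h it took in the sites from 31094645 to 31094939, at least 295 bp. The far upstream end therefore differed between the last 2 libraries: the pair of sites at 31094282 and 31094342 held 7 entries at 1.5 h and 0 at 2 h. The near end differed in the 0.5 h library, which stopped between 253 and 237 bp before the 5′ end, while those of 1.5 h and 2 h reached the last site. Sites of 1 block are not separate measurements, and the 16 sites count as 1 region.

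**Figure D1:**
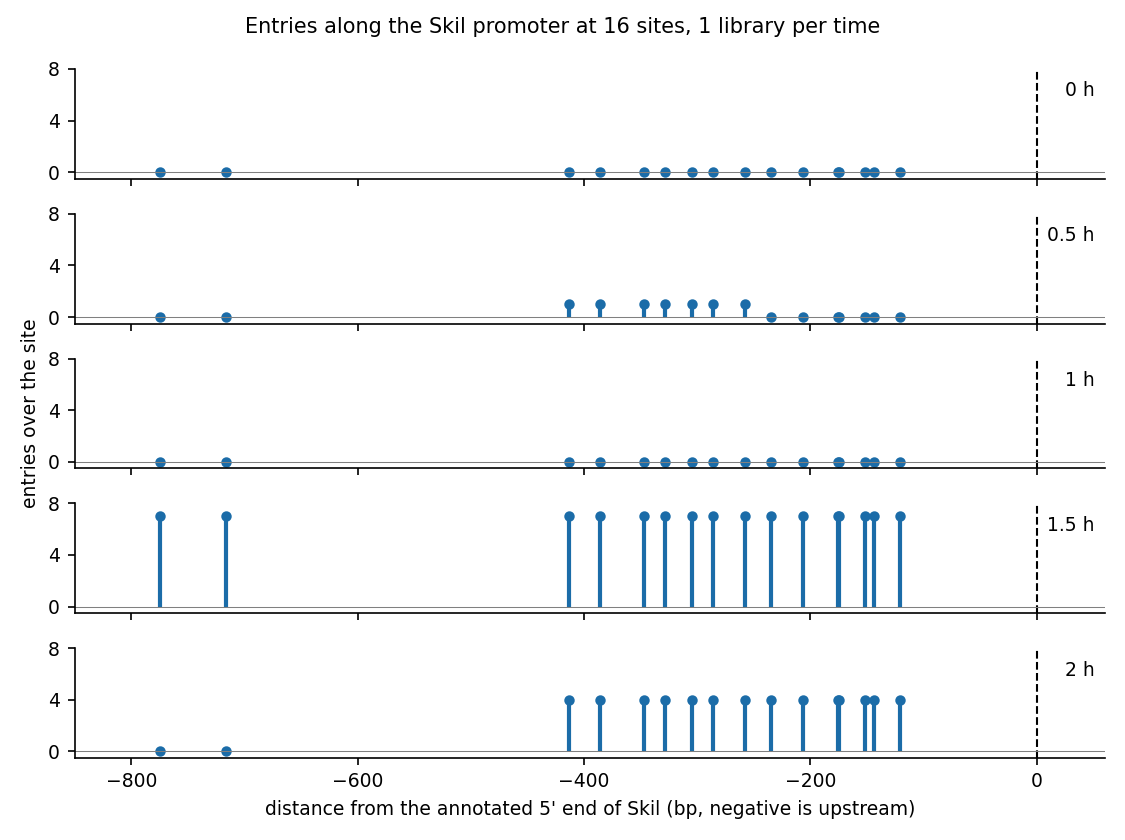
Entries over each of the 16 Skil sites (vertical axis) against distance from the annotated 5′ end of the gene in bp (horizontal axis, upstream negative, dashed line at 0), 1 panel per library. The panels of 0 h and 1 h are at 0, that of 0.5 h has 7 sites at 1 entry, that of 1.5 h all sites at 7, and that of 2 h 14 sites at 4.

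On log2(entries + 1), a scale that understates differences of low values, the first of the Skil sites with the highest mean (31094645) differed from 0 h by 1.00 (0.5 h), 0.00 (1 h), 3.0 (1.5 h) and 2.32 (2 h). A height of 7 or more entries at 1.5 h was held by 45 of 8034 genes (0.56%), each taken at its site with the highest mean. In that library Skil was among the highest genes of the table, and in the library before it was at 0. Of 2123 sites of other genes that lie 100 to 800 bp upstream of a 5′ end, the 0 h library covered 56.6%, the 1 h library 59.6% and the 1.5 h library 73.4%, so an uncovered site at this position was common at 0 h and at 1 h.

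Tgfb1, the ligand gene, had 3 sites with 3 different courses. The site at the annotated 5′ end (chromosome 7, 25687001 to 25687008, gene start at 25687002) held 0 entries before induction (0 h) and then 3 (0.5 h), 0 (1 h), 2 (1.5 h) and 2 (2 h). The site 894 bp inside the gene (25687896) held 4, 3, 0, 1 and 1 entries in the same order of times. The site 86 bp before the 3′ end of the gene (25704989 to 25704991) held 0 in every library. The first 2 sites, 888 bp apart, thus differed in direction from 0 h to the later times. Entries at the 5′ end were more at 0.5, 1.5 and 2 h than at 0 h, and those inside the gene were fewer at every later time. The working description under which these genes were grouped, that ligand genes lose entries while the repressor gains them, held for the inner site and not for the site at the 5′ end. Both covered sites were at 0 at 1 h.

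The 8 bases of the 5′ end site are shown in capitals, with 20 bases on each side (chr7:25686981-25687028), because it is the member site that carries the annotated start of the ligand gene. The site lies within a run of CCG repeats, at positions 250 to 257 of the promoter window printed above.
Tgfb1 site: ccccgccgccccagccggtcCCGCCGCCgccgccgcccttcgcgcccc

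On the log2(entries + 1) scale, the inner Tgfb1 site differed from its 0 h value by −0.32 after 0.5 h, −2.32 after 1 h and −1.32 after both 1.5 and 2 h. The 5′ end site differed by 2.00 at 0.5 h, 0.00 at 1 h and 1.58 at both 1.5 and 2 h. The inner site is the one with the highest mean, so a table with 1 value per gene shows only its course. Of 886 sites of other genes within 10 bp of a 5′ end, the 0 h library covered 68.6% and the 1.5 h library 80.5%.

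Ltbp1, which encodes the latent TGF-beta binding protein, had 1 site, as did 32.4% of genes. It is a single base on the minus strand, 971 bp inside the gene (chromosome 17, 75006451, gene from 75005480 over 387033 bp on the plus strand) and 873 bp past the end of the promoter window printed above. It held 5 entries before induction (0 h) and then 3 (0.5 h), 0 (1 h), 4 (1.5 h) and 3 (2 h). Unlike the inner Tgfb1 site, which held 1 entry at 1.5 h, Ltbp1 was back within 1 entry of its 0 h value at that time. The log2 differences from 0 h were −0.58, −2.58, −0.26 and −0.58 in order of time. At 0 h, 354 genes (4.41%) held 5 or more entries, so Ltbp1 was among the higher genes there.

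**Figure D2:**
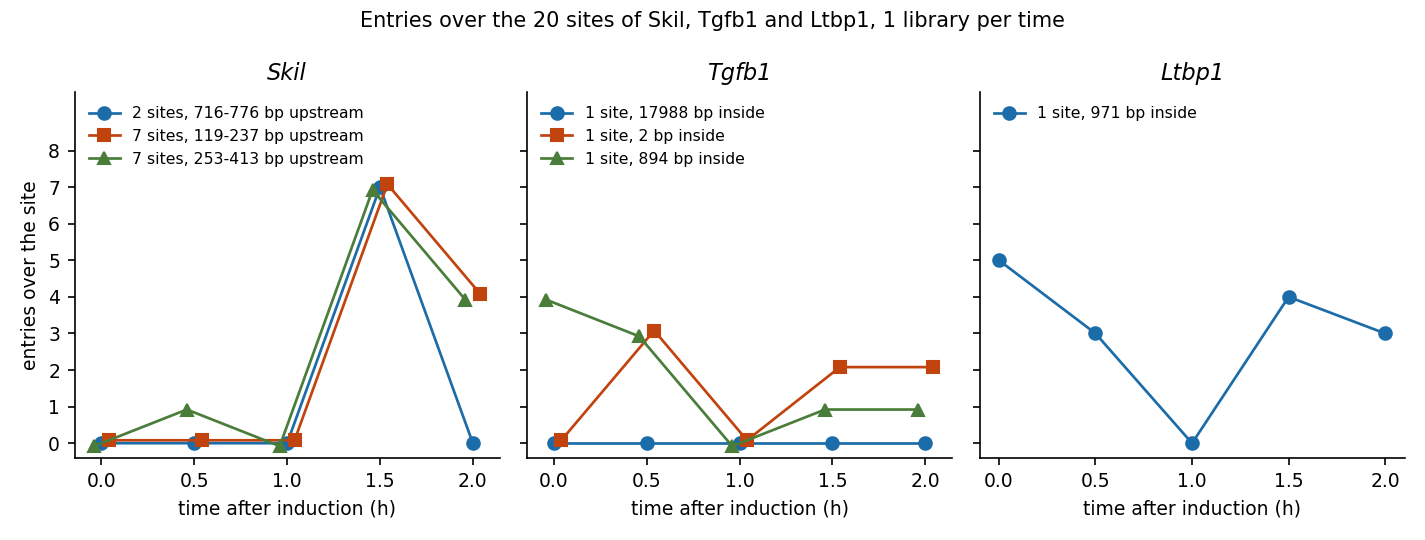
Entries over the sites (vertical axis) of Skil, Tgfb1 and Ltbp1 against time after induction in hours (horizontal axis), 1 library per time. Each line is a set of sites with equal values, and lines are shifted slightly to keep them apart (the legend gives the midpoint of a site, 2 bp inside the gene for the 5′ end site). All lines meet at 0 at 1 h, Skil peaks at 7 at 1.5 h, and the Tgfb1 lines of the 5′ end site and the inner site start from 0 and 4.

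All 20 sites of the 3 genes held 0 entries at 1 h, whereas the 0 h library covered 2 of them, the 0.5 h library 10, the 1.5 h library 19 and the 2 h library 17. Of the 20, 8 were gained at 0.5 h, where 12.0% of all sites were gained, 17 at 1.5 h (19.7% of all sites) and 15 at 2 h (18.9% of all sites). At 1 h 2 were lost, the inner Tgfb1 site and that of Ltbp1, where 3.03% of all sites were lost. These counts rest on the values that chose the genes, and most gained sites belong to the single Skil region. The inner Tgfb1 and Ltbp1 sites lie at like distances inside their genes. Of 398 sites of other genes 800 to 1000 bp inside a gene and covered at 0 h, 37 were uncovered at 1 h (9.3%), against 55 of 1201 sites 100 to 800 bp upstream of a 5′ end (4.58%). Neighbouring sites share intervals, and with 1 library per time the difference between these shares could not be tested.

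Few genes shared these courses. Ltbp1 and Tgfb1, by their sites with the highest mean, belonged to the genes that the 1 h library alone left uncovered, which were 1.95% of all genes. Skil belonged to those uncovered at 0 and 1 h and covered at the other times, 1.78% of all genes. For comparison, 69.0% of genes were covered in all 5 libraries, 19.2% in none, and 2.39% were uncovered at 0 h and covered at every later time.

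The other genes of the pathway were taken from lists of 139 symbols by role, of which 92 had sites in the table (512 sites). At 0.5 h, 31 of the 92 had more entries than at 0 h (28.1% of all genes did) and 13 fewer (15.6% of all genes). At 1 h, 20 had more (all genes 20.6%) and 27 fewer (all genes 22.0%). At 1.5 h, 35 had more (all genes 31.3%) and 16 fewer (all genes 17.9%), and at 2 h, 28 had more (all genes 25.7%) and 19 fewer (all genes 22.9%). In shares of the 92 these were 33.7, 21.7, 38.0 and 30.4% with more and 14.1, 29.3, 17.4 and 20.7% with fewer. By the site with the highest mean, the lists thus followed the table as a whole. More genes had higher than lower values at 0.5, 1.5 and 2 h, and the reverse held at 1 h. The order at 1 h depended on the choice of site: with the mean of all sites of a gene, 30 had more and 28 fewer. At the site with the highest mean, the median log2 difference was 0 at each time for the 92 and for all genes.

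**Figure D3:**
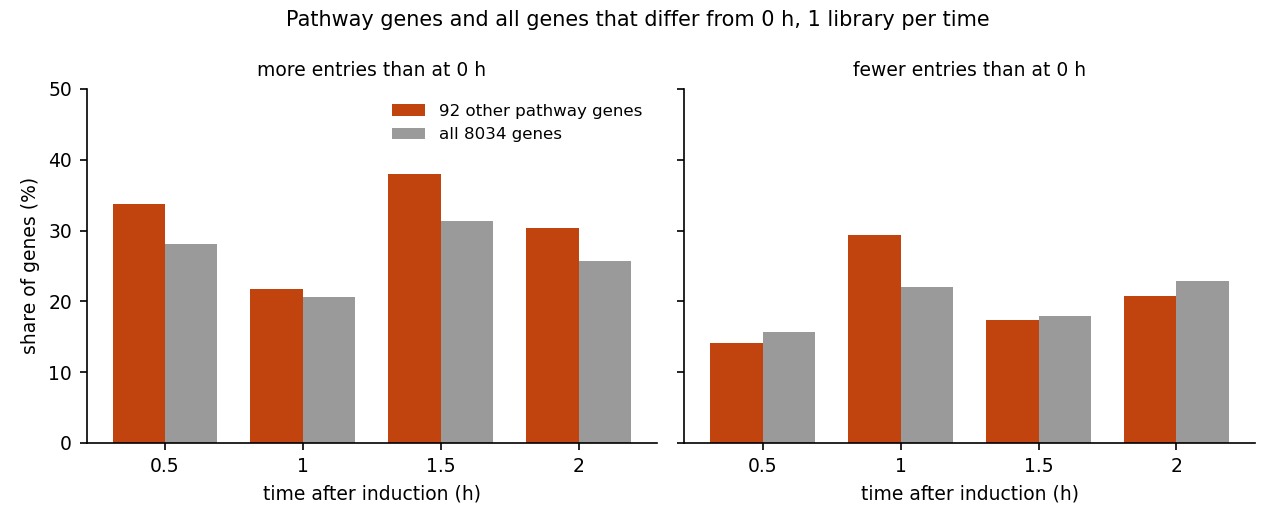
Share of genes in percent (vertical axis) with more entries (left) or fewer entries (right) than at 0 h, against time after induction in hours, for the 92 other pathway genes and for all 8034 genes of the table. Bars of the pathway genes stand above those of all genes for more entries at each time, with 38.0 against 31.3% at 1.5 h, and for fewer entries at 1 h, with 29.3 against 22.0%.

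A difference of at least 2-fold on the log2(entries + 1) scale, in either direction and at any later time, was held by 29 of the 92 genes (31.5%), where 22.7% of all genes held one. At 0.5 h, 12 pathway genes were at least 2-fold higher (8.18% of all genes) and 0 lower (2.19% of all genes). At 1 h, 6 were higher (all genes 4.72%) and 9 lower (all genes 4.99%), at 1.5 h 11 were higher (all genes 11.4%) and 3 lower (all genes 1.83%), and at 2 h 10 were higher (all genes 9.53%) and 5 lower (all genes 3.49%). Below, 5 values in a row are entries at 0, 0.5, 1, 1.5 and 2 h at the gene's site with the highest mean. Other sites of the same gene can hold other values.

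Of 13 other ligand genes, 5 were covered at 0 h, where 72.8% of all genes were. Tgfb2, a second ligand of the same receptors, held 2, 3, 3, 3 and 3 entries, 4386 bp into the gene. The growth and differentiation factor genes Gdf11 (1, 1, 0, 1 and 1) and Gdf6 (1, 1, 0, 2 and 1) were uncovered at 1 h and at no other time, as the inner Tgfb1 site was. Bmp2, a bone morphogenetic protein, was covered in the last library alone. It held 2 entries there at 5 of its 7 sites, from −102 to 116 bp relative to its 5′ end (negative is upstream). Nodal, Bmp7, Bmp8a, Bmp8b, Gdf7, Gdf10 and Amh held 0 in every library, as 19.2% of all genes did. Tgfb3 was not analysed here. Inhbb held 3, 4, 3, 3 and 2 entries and Bmp6 held 2, 3, 1, 1 and 2. The measured ligand genes other than Tgfb1 were therefore either uncovered in every library or differed between libraries. At 1 h 1 of the 13 held more entries than at 0 h (20.6% of all genes) and 3 fewer (22.0%). At 1.5 h 2 held more (31.3% of all genes) and 1 fewer (17.9%).

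Genes for holding and releasing latent ligand went different ways. Of the paralogues of Ltbp1, Ltbp3 held 1, 1, 0, 1 and 1 entries, at chromosome 19, 5741815, 915 bp into the gene, so it too was uncovered at 1 h alone. Ltbp2 and Ltbp4 held 0 throughout. Fbn1, the fibrillin on whose microfibrils latent complexes are held, had 5, 3, 3, 2 and 3 entries, and its paralogue Fbn2 had 1, 3, 2, 2 and 2. Itgav, the integrin alpha V subunit that takes part in releasing the ligand, went from 0 at 0 h to 3, 2, 3 and 3, measured 2376 bp into the gene. The protease gene Furin, which cuts the TGF-beta precursor, held 0 at all 17 of its sites in every library. Bmp1 held 2 in each library at 1 of its 4 sites. Of the other Bmp1 sites, 2 held 0, 2, 0, 2 and 2 and 1 held 0 throughout.

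Among extracellular antagonists, Nog, which encodes the bone morphogenetic protein antagonist noggin, held 0, 1, 0, 4 and 1 entries 333 bp inside the gene. It was thus uncovered at the same times as Skil and lower than Skil at 1.5 and 2 h. Nbl1, another antagonist of these ligands, held 2, 3, 0, 2 and 2 entries. Of the 7 measured antagonist genes, 4, 0, 1 and 2 were above their 0 h value in order of the later times (28.1, 20.6, 31.3 and 25.7% of all genes), and 0, 2, 1 and 1 were below it (15.6, 22.0, 17.9 and 22.9% of all genes).

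By the site with the highest mean, 11 of 12 receptor genes were covered at 0 h (72.8% of all genes). At that site 0 were at least 2-fold higher at any time. At 1 h 1 was at least 2-fold lower, near the 4.99% of all genes. The type I receptor gene Tgfbr1 held 2, 1, 1, 1 and 2 entries and the type II receptor gene Tgfbr2 held 4, 4, 4, 3 and 3. The coreceptor gene Tgfbr3 held 3 in each library. Bmpr1a, a type I receptor for bone morphogenetic proteins, was the exception at its top site, with 2, 3, 0, 3 and 2 entries. Its sites 548 to 586 bp inside the gene held 0, 3, 1, 3 and 2, so the 1 h library did cover a part of this gene. Some sites of other receptor genes were also uncovered at 0 h and covered later. For Acvr1b 7 sites held 0, 2, 2, 3 and 2, and for Acvr2a 5 held 0, 3, 0, 3 and 3. For Acvr2b 4 sites held 0, 2, 3, 3 and 4, and for Bmpr2 3 held 0, 3, 3, 4 and 6. A site of Acvr1 that was covered at 0 h held 2, 0, 0, 2 and 0.

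The 5 Smad genes measured outside the inhibitory class were covered in all libraries. Smad2 held 3, 3, 2, 2 and 2 entries, Smad3 2, 2, 1, 2 and 2, and the common partner gene Smad4 2 in each. Of the transducers of the bone morphogenetic protein branch, Smad1 held 5, 6, 4, 6 and 7, and Smad5 held 2, 5, 2, 6 and 4, with its lowest values at 0 and 1 h. At 11 further Smad5 sites, 236 to 471 bp inside the gene, the values were 0, 5, 0, 6 and 4. These sites were uncovered at the same times as Skil, though higher at 0.5 h. Zfyve9, which encodes the Smad anchor SARA, held 1, 2, 3, 4 and 3.

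Repressors and inhibitors other than Skil held more entries than at 0 h in 5, 5, 7 and 5 of 11 genes, in order of the later times, where 28.1, 20.6, 31.3 and 25.7% of all genes did. They held fewer in 0, 3, 1 and 3 genes, where 15.6, 22.0, 17.9 and 22.9% of all genes did. With 11 genes and 1 library per time, nothing particular to the list can be read from these counts. Ski, the paralogue of Skil, held 1, 2, 1, 1 and 1 at its highest site, and 23 of its 35 sites held 0 in every library. Smad7, the inhibitory Smad, held 0 at all 7 of its sites. The feedback inhibitors Pmepa1 (0, 4, 3, 4 and 4, at 921 bp inside) and Ldlrad4 (0, 2, 2, 2 and 3, at 968 bp inside) were uncovered at 0 h and covered at each later time, 1 h included, unlike Skil. For Pmepa1 this was the course of 1 of 12 sites. Of the others, 9 held 0 in every library and 2 held 1 entry at 2 h alone. Trim33, a ligase that acts on Smad4 complexes, held 2, 2, 3, 6 and 5 entries at 9 of its 14 sites and 0, 0, 0, 6 and 5 at 5. Strap, which stabilises Smad7 at the receptor, held 1, 3, 2, 2 and 2. Fkbp1a, which keeps the type I receptor inactive, held 5, 5, 2, 5 and 2, and Tgif2, a homeodomain corepressor, held 3, 3, 0, 4 and 0. Tgif1 was not analysed here.

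The ubiquitin ligase gene Smurf2, whose product targets SnoN and the receptors, held 0, 4, 0, 5 and 5 entries. It was thus uncovered at the same times as Skil, with more entries than Skil at 0.5 h and no decrease from 1.5 to 2 h. All 4 of its sites, 110 to 399 bp inside the gene (chromosome 11, 106920345 to 106920639), held these values. Its paralogue Smurf1 held 1, 2, 2, 2 and 2, and Wwp2 held 2, 5, 3, 4 and 4. Rnf111, which encodes Arkadia, held 2, 4, 1, 3 and 2. Of 7 measured genes in this list, 5, 3, 5 and 3 held more entries than at 0 h in order of the later times (28.1, 20.6, 31.3 and 25.7% of all genes), and 1, 2, 0 and 1 held fewer (15.6, 22.0, 17.9 and 22.9% of all genes).

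Partner genes were mixed. Ncor1, the corepressor that SnoN recruits, held 4 entries in each library. The histone deacetylase gene Hdac1 held 3, 2, 3, 2 and 1. The acetyltransferase gene Ep300, a Smad coactivator, held 2, 4, 5, 4 and 5 at 2 of its 6 sites and 0, 4, 5, 4 and 5 at 4. In the arm of the pathway that runs through the kinase TAK1, its adaptor genes went different ways. Tab2 (1, 3, 2, 4 and 2) and Tab3 (1, 3, 1, 2 and 2) held more entries at 0.5 h than at 0 h. The adaptor gene Tab1 (4, 3, 3, 3 and 2) held fewer at each later time. The kinase gene Map3k7 held 2, 2, 3, 2 and 2.

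Of 12 target genes, 2, 3, 5 and 3 were above their 0 h value in order of the later times (28.1, 20.6, 31.3 and 25.7% of all genes), and 5, 5, 4 and 5 were below it (15.6, 22.0, 17.9 and 22.9% of all genes). Klf10, an early TGF-beta response gene, held 0, 3, 1, 2 and 2 entries 1621 bp inside the gene. These values were held by 3 of its 6 sites, and the others held 0 at 1 h as well as at 0 h. Twist1, a factor of mesenchymal transition, held 2, 3, 3, 6 and 4 at 3 of its 7 sites. The other Twist1 sites held 0 at both 0 h and 0.5 h. Junb held 1, 1, 0, 0 and 0 and Gadd45b held 5, 3, 3, 1 and 3. Both directions were thus held by targets at each time. In the 1.5 h library the other pathway genes reached at most 6 entries, against 7 for Skil, and Smad1 reached 7 at 2 h.

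**Figure D4:**
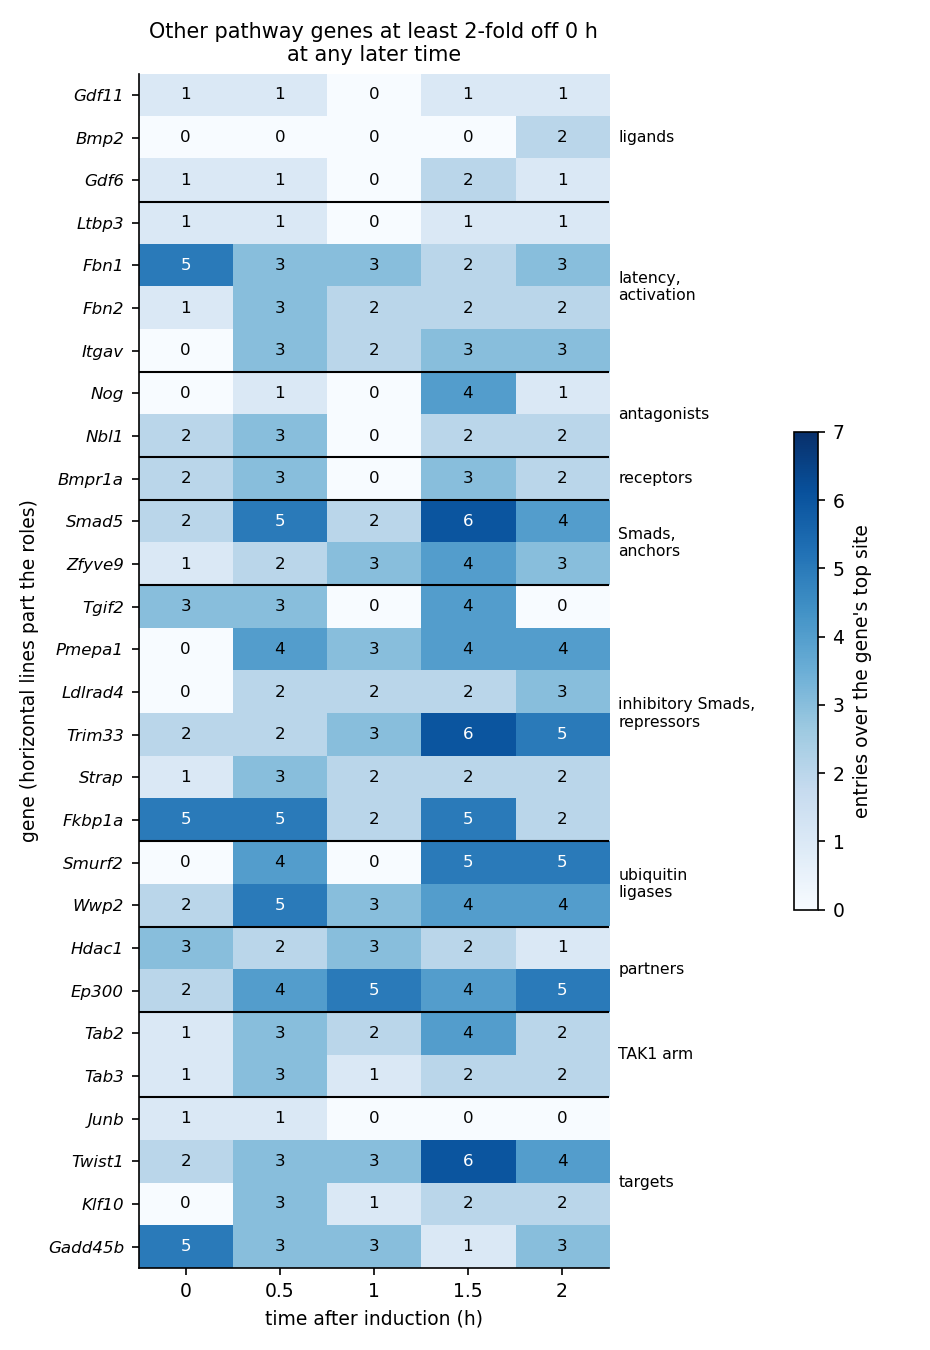
Entries at the top site (colour and printed number) of 28 of the other pathway genes at least 2-fold off 0 h at any later time, by time after induction in hours, with horizontal lines between roles. Columns at 0 h and 1 h hold the most zeros, and Smad5, Trim33 and Twist1 reach 6 at 1.5 h.

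By the site with the highest mean, 5 of the 92 genes were left uncovered by the 1 h library alone (Gdf11, Gdf6, Ltbp3, Nbl1 and Bmpr1a; 5.43%, against 1.95% of all genes), as Ltbp1 and the inner Tgfb1 site were. The course of Skil, uncovered at 0 and 1 h and covered at the other times, was shared at that site by Nog and Smurf2 (2.17%, against 1.78%). At any site it was held by 16 of the 92 genes (17.4%, against 9.41% of all genes), among them Smad2, Smad3, Smad5, Acvr2a, Rnf111 and Tob1, and also by the 5′ end site of Tgfb1. A gene with more sites can meet this more easily, and the numbers of sites were not matched. Itgav, Pmepa1, Ldlrad4 and Klf10 were uncovered at 0 h alone at their top site (4.35%, against 2.39%), 61 genes were covered throughout (66.3%, against 69.0%) and 16 in no library (17.4%, against 19.2%). These shares are small counts, and 3 of the first 5 genes held no more than 2 entries in any library.

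The genes whose 5 values lay closest to those of each member were found by the sum of absolute differences over the 5 libraries. For Skil they were Ubr3, a ubiquitin ligase gene (1, 1, 1, 7 and 4, sum 2), Ism1 (0, 1, 1, 6 and 4, sum 2), the kinase gene Dyrk2 (0, 1, 1, 6 and 5, sum 3), and Mxra7 and Usp6nl (both 0, 0, 0, 5 and 4, sum 3). No gene matched it exactly. For the inner Tgfb1 site the closest were Cpeb3, the retinoblastoma gene Rb1, Bcl7a, the Wnt transducer gene Dvl1 and Npat, each at a sum of 2, and 6 genes lay at or below that sum. Bcl7a held 4, 2, 0, 1 and 2 entries 822 bp into its gene, a like position. For Ltbp1 the closest was Gm20458 (4, 3, 0, 4 and 3, sum 1), followed by the methyltransferase gene Ehmt1, the MAP kinase inhibitor gene Spred2, Cd276 and Lix1l, each at a sum of 2. None of these 15 genes was in the pathway lists.

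The neighbouring genes with sites in the table did not show the members' courses. Within 100000 bp of the Skil sites the only other gene with a site in the table was Cldn11, which held 0 entries at both of its sites in every library, 54951 bp or more away. Near Tgfb1, Exosc5 held 2, 3, 4, 2 and 2 entries at 4 sites, with its highest value at 1 h, where Tgfb1 held 0, and Dmac2 held 2, 3, 2, 2 and 2. No other gene had a site within 100000 bp of that of Ltbp1.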

How the data were processed

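ATAC-seq libraries of C17.2 cells at 0, 0.5, 1, 1.5 and 2 h, 1 per time, were used as 1 deposited table of 34714 sites with 1 column per library. Per the submitters' processing notes, Bowtie2, MACS2, deepTools and build GRCm38/mm10 were used. Their versions and settings, and where the site list came from, are not stated. The values deposited by the authors are whole numbers of no stated unit, read here as stacked interval entries from their range and the column names, with equal values at 93.5% of 56423 neighbouring site pairs. They are not read counts, depth is unknown, and no count model, interval or test was used.

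Values were read with Python 3.11.15, pandas 2.3.3 and numpy 2.4.6. A gene was represented by the site whose mean across libraries was highest, ratios are log2 of entries plus a pseudocount of 1, and 2-fold calls are on that scale. Positions in genes come from RefSeq GRCm38.p6, matched for 7551 symbols. The scripts were tested on simulated data. The genes, pathway lists and marker lists were chosen with earlier results of these data known. The text names the 3 member genes, pathway genes by role, and the 5 genes closest to each member by the sum of absolute differences. Promoter sequence was used for 2 of the 3 members. Alternatives were other choices of site, pseudocount, scaling, coverage rule and gene filter. Some genes of the lists enter the counts but are not reported by name here.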

Additional observations from a re-analysis of the deposited data

How the results depend on the processing

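The direction of Tgfb1 depended on the site. No alternative could turn the sign for Ltbp1, which has 1 site, or for Skil, which starts from 0, so their unchanged directions are no sign of stability. With the site nearest the 5′ end in place of that with the highest mean, the log2 ratios of Tgfb1 to 0 h were 2.00, 0.00, 1.58 and 1.58 at 0.5, 1, 1.5 and 2 h, reversed at all but 1 h, and Skil was 0.00 at 0.5 h. With the mean of all sites, Tgfb1 was 0.36, also reversed, −1.22, −0.22 and −0.22, and Skil 0.52 at 0.5 h and 2.17 at 2 h. With a pseudocount of 0.5, Skil was 1.58, 3.91 and 3.17 at 0.5, 1.5 and 2 h, Tgfb1 −0.36, −3.17, −1.58 and −1.58, and Ltbp1 −0.65, −3.46, −0.29 and −0.65. With libraries scaled to the genes covered in all 5, Skil was 0.96, 2.95 and 2.37, Tgfb1 −0.41, −2.35 and −1.38 at 0.5, 1 and 1.5 h, and Ltbp1 −0.67, −2.61, −0.34 and −0.57. Requiring 2 or more entries left 0 Skil sites covered at 0.5 h and 1 Tgfb1 site at 1.5 and at 2 h. Merging sites within 500 bp left Skil 1 region, covered at 0.5, 1.5 and 2 h. Of the 92 pathway genes, 12, 6, 11 and 10 were higher and 0, 9, 3 and 5 lower at 0.5, 1, 1.5 and 2 h under a 2-fold rule, since small differences drop out. Only 40 of the 92 genes were at or above the median gene's mean. Among these 40, 17, 13, 21 and 17 were higher at 0.5, 1, 1.5 and 2 h. Lower ones among the 40 numbered 10, 12, 10 and 12. With the mean of all sites, 41, 30, 48 and 43 of the 92 were higher in order of the later times. Lower ones numbered 13, 28, 13 and 17, so at 1 h slightly more genes were higher than lower. The higher counts thus rose at every time, and the cause was not tested. Shares of all genes under this setting and under the filter by the median were not computed. No paired analysis was possible because each time had 1 library. Read depth is unknown, so how much of a value of 0 or 1 entry is set by depth was not tested.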
